A study of Mus musculus with 4 samples.

Results

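A set of 10 basement membrane genes was described in mouse embryonic stem cells after siRNA against Hnrnpk, the gene of the RNA-binding protein hnRNP K. Only RNA was measured, so the level of the protein is not known from these data. They were chosen by symbol as collagen IV (Col4a1, Col4a2), laminin chains (Lama1, Lama5, Lamb1, Lamc1), nidogens (Nid1, Nid2), perlecan (Hspg2) and Sparc. All 10 were found among the 22138 genes of the table, and all 10 passed the filter on low values, which 12486 genes passed. The cells were TT2, a female line of embryonic stem cells (background C57BL/6xCBA), grown without feeder cells in medium with serum and LIF, and the groups were control siRNA (n = 2 libraries) and Hnrnpk siRNA (n = 2 libraries). In both groups the siRNA was given at 100 nM and, 24 hours later, at 50 nM, and RNA was taken some 72 hours after the later dose. The labels name no siRNA sequence and do not say whether replicates were separate cultures, so p-values measure the spread between these libraries, which may be technical. The labels give 2 accounts of the RNA, rRNA-depleted and poly(A)-selected.

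A basement membrane is a thin sheet of extracellular matrix on which epithelia rest. Laminin, a trimer of an alpha, a beta and a gamma chain, assembles into a network at the cell surface. Collagen IV, a triple helix whose commonest form is built from the products of Col4a1 and Col4a2, forms a further network, and nidogen and the heparan sulfate proteoglycan perlecan link them. Sparc is a collagen-binding matricellular protein. In the early mouse embryo, primitive endoderm lays down the first such sheet, and its descendant parietal endoderm makes the thick Reichert's membrane from these products. Embryonic stem cells make some of these proteins too, laminin above all.

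Promoter windows of the genes are shown as sequence. Binding of hnRNP K was not measured, and a link between these letters and the direction of change was not tested. RefSeq windows of 300 bases (250 before and 50 from the start site, build GRCm38.p6) were found for 7 of the 10 members and not for Lama1, Lamc1 and Nid2. Capitals mark CCCTCCC on either strand, the core of a C-rich element of the Myc promoter that hnRNP K is known to bind. Col4a1 and Col4a2 lie head to head, so 30 bases at their paired starts are given once, on the Col4a2 strand (chr8:11312780-11312809). Stretches before the start, ended before annotated transcript leaders, are given for Lama5 (chr2:180225860-180226109, minus strand), Nid1 (chr13:13437352-13437550, plus strand) and Hspg2 (chr4:137468553-137468768, plus strand), which rose, and for Lamb1 (chr12:31265043-31265233, plus strand), which fell.
Col4a2 and Col4a1 start: gttggcgctgccCCCTCCCctcggcagtgc
Lama5: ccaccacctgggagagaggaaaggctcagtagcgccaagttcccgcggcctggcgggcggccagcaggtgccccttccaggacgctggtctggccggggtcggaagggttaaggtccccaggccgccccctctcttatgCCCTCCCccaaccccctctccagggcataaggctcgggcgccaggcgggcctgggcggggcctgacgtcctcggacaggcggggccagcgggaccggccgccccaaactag
Nid1: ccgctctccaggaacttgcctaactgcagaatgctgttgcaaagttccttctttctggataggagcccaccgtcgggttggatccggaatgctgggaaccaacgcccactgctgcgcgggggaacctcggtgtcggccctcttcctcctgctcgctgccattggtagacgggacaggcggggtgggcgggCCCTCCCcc
Hspg2: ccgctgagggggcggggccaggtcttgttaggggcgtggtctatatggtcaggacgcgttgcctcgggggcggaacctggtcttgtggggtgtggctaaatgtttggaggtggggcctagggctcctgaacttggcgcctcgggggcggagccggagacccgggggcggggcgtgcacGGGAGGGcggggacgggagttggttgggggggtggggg
Lamb1: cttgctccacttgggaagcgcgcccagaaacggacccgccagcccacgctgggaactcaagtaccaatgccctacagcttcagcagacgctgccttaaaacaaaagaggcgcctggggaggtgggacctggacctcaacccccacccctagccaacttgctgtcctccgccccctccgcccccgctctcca

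CCCTCCC was present on either strand in 5 of the 7 windows (Col4a1, Col4a2, Lama5, Nid1, Hspg2) and in 22.0% of all 32851 windows of that length in the table. The Col4a1 and Col4a2 windows share 78 bases, and their match is the same 7 letters, starting at base 11312792 of chromosome 8. The windows of Lamb1, which fell, and Sparc, which rose, held no match. The GC box GGGCGG was in 6 of the 7 windows, all but that of Sparc, and in 35.7% of all windows, and in Hspg2 1 GC box overlaps the capitals. GATAA, a core of sites for GATA factors, was in 0 of the 7 windows and in 25.4% of all windows. The windows of Col4a2, Lama5, Nid1, Hspg2 and Lamb1 held 63.7% to 73.7% G and C. The shares over all windows were not matched for G and C content, which bears on how often such letters occur. The counts therefore do not measure enrichment or depletion among the members. These letters were chosen with the promoters of the members in view, and a match describes the sequence only.

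Replicate libraries were alike, and the targeted gene was low where the labels place it. Low values, through the 66 to 108 genes per library at the commonest ratio, gave a depth of 0.982, 0.891 and 0.882 in control replicate 2 and Hnrnpk siRNA replicates 1 and 2 relative to control replicate 1, and the number of reads is unknown. Pearson's r over the tested genes, which are not independent replicates, was 0.997 between control libraries, 0.999 between Hnrnpk siRNA libraries and 0.955 to 0.960 across groups. Hnrnpk had 236 and 226 RPKM (reads scaled to transcript length and to mapped library size) after control siRNA and 68.0 and 70.5 RPKM after Hnrnpk siRNA. The log2 difference was -1.73 (SE 0.0629, limma adjusted p = 6.59e-08). Of its longest coding transcript, 50.5% matches other genes at 95% identity or more, so its level is uncertain.

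Of the 10 basement membrane genes, 7 were higher and 2 were lower after Hnrnpk siRNA, and Lama1 was not called. Both collagen IV genes rose about as much as each other, by 3.46-fold and 3.56-fold, and were the members with the largest changes. Lama5, Nid1, Sparc, Hspg2 and Nid2 rose by 1.24-fold to 2.14-fold, while Lamb1 and Lamc1, the beta and gamma chains with which both Lama1 and Lama5 products assemble, fell to 0.725 and 0.659 of control. Calls rest on limma with a Benjamini-Hochberg adjusted p under 0.05 over all genes tested, where 67.2% of genes were called, 32.2% higher and 35% lower. The members' shares were 90% called, 70% higher and 20% lower. The median log2 change was 0.66 over the members and -0.015 over all genes tested. A log2 change of at least 1 upward was reached by 4 members (40%) and by 4.0% of all genes tested. Values of the groups did not overlap in any of the 10 members (8 higher, 2 lower), nor in 84.7% of all genes tested (41.2% higher, 43.5% lower). In bulk RNA, a change in the number of cells that express a gene and a change in RNA per cell cannot be told apart.

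**Figure D1:**
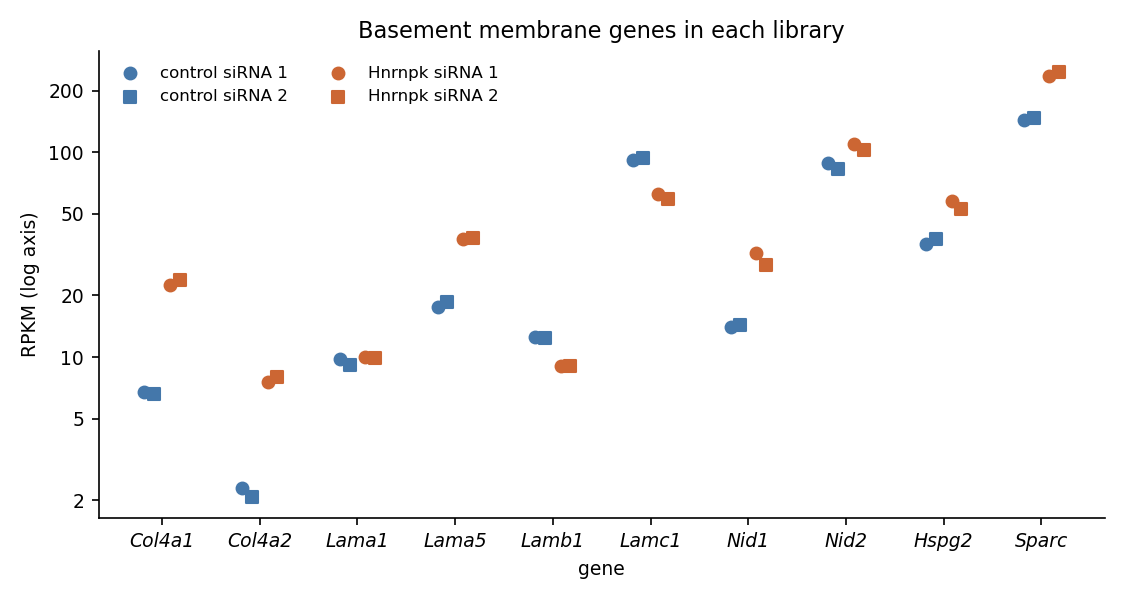
RPKM (log axis) of each basement membrane gene in the 4 libraries; blue marks control siRNA, orange marks Hnrnpk siRNA, circles replicate 1 and squares replicate 2. The pairs of replicates lie close together, and the orange points of Col4a1 (22.5 and 23.8 RPKM) stand well above the blue ones (6.75 and 6.62 RPKM), while those of Lamc1 lie below.

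Col4a1 (ENSMUSG00000031502, GRCm38 chr8:11198423-11312826, minus strand) encodes the alpha 1 chain of collagen IV. It had 6.75 and 6.62 RPKM under control siRNA and 22.5 and 23.8 RPKM under Hnrnpk siRNA. Both Hnrnpk siRNA libraries lay far above both control libraries. The log2 change was 1.72 (SE 0.0692, 95% interval 1.56 to 1.87, limma adjusted p = 1.10e-07), above the change of 98.9% of the genes tested.

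Col4a2 (ENSMUSG00000031503, GRCm38 chr8:11312805-11449287, plus strand) encodes the alpha 2 chain, and its annotated start overlaps that of Col4a1 by 22 bases on the opposite strand. Its values were 2.30 and 2.08 RPKM under control siRNA and 7.57 and 8.01 RPKM under Hnrnpk siRNA, again with a wide gap between the groups. The log2 change was 1.62 (SE 0.0846, 95% interval 1.43 to 1.81, limma adjusted p = 4.82e-07). The collagen IV trimer holds more alpha 1 than alpha 2 chains. Per length, the ratio of Col4a1 to Col4a2 transcripts was 2.94 and 3.18 under control siRNA and 2.97 and 2.97 under Hnrnpk siRNA. The values of the groups overlapped (exact two-sided permutation p = 1, where 2 against 2 libraries cannot give less than 0.333).

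The other collagen IV chains, Col4a3 to Col4a6, which make the networks of kidney, eye and other specialised membranes, were listed at 0.000792 to 0.0700 RPKM in the 4 libraries and were not tested. Col4a1 and Col4a2 made up 99.0% ± 0.0501 of the summed collagen IV RPKM under control siRNA and 99.9% ± 0.0144 under Hnrnpk siRNA (SD, n = 2 each). That sum was 8.97 ± 0.242 RPKM and 31.0 ± 1.21 RPKM in the same order (SD, n = 2 each).

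The laminin alpha chains differed from each other. Lama5 (ENSMUSG00000015647, GRCm38 chr2:180176373-180225859, minus strand), the alpha chain of many adult and embryonic basement membranes, had 17.6 and 18.5 RPKM after control siRNA and 37.7 and 38.2 RPKM after Hnrnpk siRNA. The groups were far apart, with a log2 change of 1.05 (SE 0.0635, 95% interval 0.91 to 1.19, limma adjusted p = 1.05e-06). Lama1 (ENSMUSG00000032796, GRCm38 chr17:67697259-67822647, plus strand), the alpha chain of the first embryonic laminin and of Reichert's membrane, had 9.81 and 9.15 RPKM after control siRNA and 9.99 and 9.94 RPKM after Hnrnpk siRNA. The groups lay side by side, and the log2 change of 0.069 (SE 0.0726, 95% interval -0.094 to 0.23, limma adjusted p = 0.423) was not called. The ratio of Lama1 to Lama5 RPKM was 0.556 and 0.494 under control siRNA and 0.265 and 0.260 under Hnrnpk siRNA, with no overlap (exact two-sided permutation p = 0.333, the smallest that 2 against 2 libraries can give). On the log2 scale the ratio was -0.93 ± 0.122 under control siRNA and -1.93 ± 0.0167 under Hnrnpk siRNA (SD, n = 2 each).

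The beta and gamma chains of the set went the other way from Lama5. Lamb1 (ENSMUSG00000002900, GRCm38 chr12:31265234-31329644, plus strand), the beta chain shared by the main embryonic laminins, had 12.6 and 12.4 RPKM after control siRNA and 9.05 and 9.01 RPKM after Hnrnpk siRNA. Both values after Hnrnpk siRNA lay below both control values, and the log2 change was -0.44 (SE 0.0685, 95% interval -0.60 to -0.29, limma adjusted p = 0.000316). Lamc1 (ENSMUSG00000026478, GRCm38 chr1:153218922-153332786, minus strand), the gamma chain of nearly all laminins and the one that nidogen binds, had 91.2 and 93.4 RPKM under control siRNA and 62.4 and 59.3 RPKM under Hnrnpk siRNA. The gap between groups was many times the gap between replicates, with a log2 change of -0.60 (SE 0.0621, 95% interval -0.74 to -0.46, limma adjusted p = 2.49e-05). The ratio of Lamb1 to Lamc1 RPKM was 0.138 and 0.132 under control siRNA and 0.145 and 0.152 under Hnrnpk siRNA, a log2 difference of 0.14 (exact two-sided permutation p = 0.333).

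Alpha and beta chains outside the set were read beside the members. Lamb2, the beta chain that replaces Lamb1 in synapses and kidney, fell from 9.62 and 9.12 RPKM to 5.34 and 5.33 RPKM (log2 change -0.76, limma adjusted p = 1.81e-05). Lama3, the alpha chain of laminin under skin, fell from 1.83 and 1.70 RPKM to 1.31 and 1.23 RPKM (log2 change -0.35, limma adjusted p = 0.00690), but was not called without Hnrnpk siRNA replicate 2 (adjusted p = 0.0846) or without the filter (adjusted p = 0.0504). Lama2 and Lama4 stood at 0.0167 to 0.0755 RPKM in every library and were not tested.

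Summed per length over all chains of a kind, laminin alpha transcripts were at 29.4 and 29.5 RPKM under control siRNA and at 49.1 and 49.5 RPKM under Hnrnpk siRNA. Beta transcripts were at 23.2 and 22.2 RPKM and then at 15.4 and 15.4 RPKM. Alpha sums stood above beta sums in every library. The ratio of alpha to beta sums was 1.30 ± 0.0440 for control siRNA and 3.20 ± 0.0216 for Hnrnpk siRNA (SD, n = 2 each). Lama5 supplied 61.5% ± 2.02 of alpha RPKM under control siRNA and 77.0% ± 0.261 under Hnrnpk siRNA, and Lama1 32.2% ± 1.66 and 20.2% ± 0.165 (SD, n = 2 each). Lamb1 supplied 55.04% ± 1.12 and 58.7% ± 0.0906 of beta RPKM (SD, n = 2 each).

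**Figure D2:**
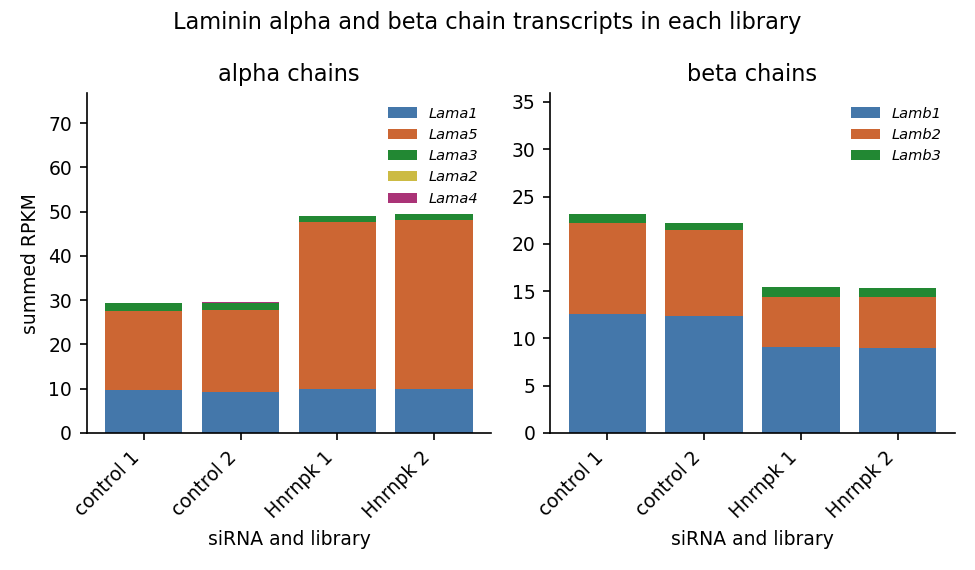
Summed RPKM of laminin alpha and beta chain transcripts in each library, with stacked bars that start at 0 and a vertical scale of its own in each panel. Alpha sums rise from 29.4 and 29.5 to 49.1 and 49.5 RPKM through Lama5, while the beta sums are lower after Hnrnpk siRNA.

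The linkers rose, to different degrees. Nid1 (ENSMUSG00000005397, GRCm38 chr13:13437551-13512269, plus strand), the nidogen that ties the laminin gamma chain to collagen IV, had 13.96 and 14.3 RPKM after control siRNA and 32.1 and 28.3 RPKM after Hnrnpk siRNA. The Hnrnpk siRNA libraries were about 4 RPKM apart and both far above the controls, with a log2 change of 1.07 (SE 0.0753, 95% interval 0.90 to 1.24, limma adjusted p = 2.42e-06). Nid2 (ENSMUSG00000021806, GRCm38 chr14:19751265-19811787, plus strand), its paralog, stood much higher, at 88.5 and 83.1 RPKM under control siRNA and 109.9 and 102.3 RPKM under Hnrnpk siRNA. The groups did not overlap, but the log2 change was only 0.30 (SE 0.0673, 95% interval 0.15 to 0.46, limma adjusted p = 0.00287), and it was not called without the filter on low values (adjusted p = 0.0523). Of the annotated exon bases of Nid2, 437 (8.45%) overlap Rtraf on the opposite strand, listed as 2700060E02Rik, which had 115 and 128 RPKM and then 138 and 147 RPKM. The labels and notes do not state whether counting used strand, so part of the Nid2 signal could not be assigned. The ratio of Nid1 to Nid2 RPKM was 0.158 and 0.172 under control siRNA and 0.292 and 0.277 under Hnrnpk siRNA, without overlap (exact two-sided permutation p = 0.333).

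Hspg2 (ENSMUSG00000028763, GRCm38 chr4:137468769-137570630, plus strand) encodes perlecan, whose heparan sulfate chains hold growth factors. It had 35.8 and 37.5 RPKM after control siRNA and 57.8 and 52.6 RPKM after Hnrnpk siRNA, with both of the latter above both of the former. The log2 change was 0.58 (SE 0.0687, 95% interval 0.43 to 0.74, limma adjusted p = 5.63e-05). Sparc (ENSMUSG00000018593, GRCm38 chr11:55394500-55423183, minus strand), which binds collagens and is made in large amounts by parietal endoderm, had 143 and 146 RPKM after control siRNA and 235 and 246 RPKM after Hnrnpk siRNA. It was the most abundant member in every library and rose with a log2 change of 0.73 (SE 0.0641, 95% interval 0.59 to 0.87, limma adjusted p = 8.88e-06).

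**Figure D3:**
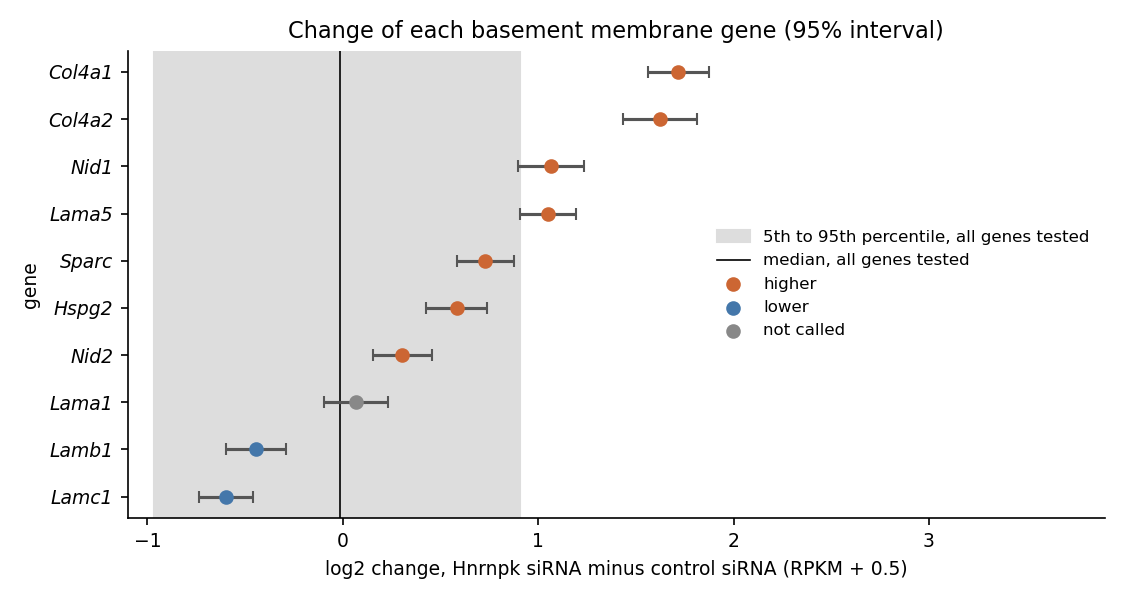
Log2 change of each basement membrane gene (points; bars are limma's moderated 95% intervals; orange higher, blue lower, grey not called), with the median (line) and the range from the 5th to the 95th percentile (grey band, -0.97 to 0.91) of the 12486 genes tested. Col4a1, Col4a2, Nid1 and Lama5 lie to the right of the band, and Lama1 sits near the median.

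On the RPKM scale, the levels after control siRNA ran from Sparc (145 ± 2.22 RPKM) through Lamc1 (92.3 ± 1.56 RPKM), Nid2 (85.8 ± 3.85 RPKM), Hspg2 (36.7 ± 1.19 RPKM), Lama5 (18.1 ± 0.639 RPKM), Nid1 (14.1 ± 0.228 RPKM), Lamb1 (12.5 ± 0.136 RPKM), Lama1 (9.48 ± 0.466 RPKM) and Col4a1 (6.69 ± 0.0931 RPKM) to Col4a2 (2.19 ± 0.151 RPKM; SD, n = 2 each). The values of neighbours in that order did not overlap between the control libraries. After Hnrnpk siRNA, Nid2 (106 ± 5.34 RPKM) stood above Lamc1 (60.8 ± 2.21 RPKM), and Col4a1 (23.1 ± 0.890 RPKM) had passed Lama1 (9.96 ± 0.0302 RPKM) and Lamb1 (9.03 ± 0.0285 RPKM; SD, n = 2 each). Lamc1 and Hspg2 (55.2 ± 3.67 RPKM, SD, n = 2) were then close, at 62.4 and 59.3 RPKM against 57.8 and 52.6 RPKM. The members together made up 0.117% ± 0.000412 of the RPKM sum of the table under control siRNA and 0.151% ± 0.00464 under Hnrnpk siRNA (SD, n = 2 each).

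Other basement membrane proteins mostly went down. Of 19 genes in that list, 8 passed the filter, and 1 was called higher and 7 lower, with a median log2 change of -0.52 beside -0.015 over all genes tested. Tinagl1, a laminin-binding matricellular protein, rose from 0.473 and 0.558 RPKM to 5.03 and 5.89 RPKM (log2 change 2.55, limma adjusted p = 1.07e-07). Frem2, a protein of the embryonic skin basement membrane, fell from 11.9 and 11.1 RPKM to 5.44 and 4.97 RPKM (log2 change -1.08, limma adjusted p = 3.14e-06). Agrin (Agrn), a heparan sulfate proteoglycan like perlecan, fell from 37.6 and 37.6 RPKM to 24.7 and 24.97 RPKM (log2 change -0.59, limma adjusted p = 2.35e-05), against the rise of Hspg2. Smoc1, a relative of Sparc, fell from 10.8 and 10.2 RPKM to 5.56 and 6.03 RPKM (log2 change -0.80, limma adjusted p = 1.62e-05). Ntn1, netrin 1, which resembles the laminin short arms, fell from 16.3 and 18.2 RPKM to 10.9 and 10.5 RPKM (log2 change -0.66, limma adjusted p = 4.92e-05).

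Collagen IV needs hydroxylation of prolines and lysines, chaperones and large secretory vesicles before it leaves the cell. In the list of 23 genes for these steps, 20 were tested, 9 were called higher, 4 lower and 7 were not called, with a median log2 change of 0.18. Plod2, a lysyl hydroxylase, rose from 9.70 and 7.94 RPKM to 19.0 and 18.5 RPKM (log2 change 1.05, limma adjusted p = 8.49e-06), while its paralog Plod1 fell from 11.5 and 9.83 RPKM to 5.62 and 5.68 RPKM (log2 change -0.86, limma adjusted p = 2.20e-05). Colgalt2, a collagen galactosyltransferase listed as Glt25d2 and counted among the 9, had 0.113 and 0.0930 RPKM and then 1.22 and 1.30 RPKM. It passed the filter only through its level under Hnrnpk siRNA, so its call is no support for a rise in the list. Sec23a, a coat protein of secretory vesicles, rose from 18.7 and 19.0 RPKM to 30.5 and 28.6 RPKM (log2 change 0.64, limma adjusted p = 2.34e-05). P3h3, of the prolyl 3-hydroxylase family and listed as Leprel2, fell from 1.95 and 1.93 RPKM to 0.771 and 0.903 RPKM (log2 change -0.87, limma adjusted p = 3.45e-05).

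The list of receptors and adhesion adaptors held 15 tested genes, of which 4 were called higher, 4 lower and 7 not called, with a median log2 change of 0.038. Itga1, the alpha subunit of a collagen-binding integrin and counted among those higher, had 0.323 and 0.449 RPKM and then 1.22 and 1.02 RPKM, and it too passed the filter only through the group where it was high. Itga3 and Itga7, alpha subunits of laminin-binding integrins, fell, each with a log2 change of -0.51, and their limma adjusted p was 0.000268 and 0.000799. Itgb4, which pairs with Itga6 to bind laminin, rose from 3.03 and 2.26 RPKM to 4.71 and 4.57 RPKM (log2 change 0.72, limma adjusted p = 0.000401) and was not called without the filter (adjusted p = 0.0620). Ilk, a kinase-like adaptor at integrin tails, rose from 19.8 and 19.2 RPKM to 27.4 and 30.4 RPKM (log2 change 0.55, limma adjusted p = 9.43e-05).

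Of the 15 tested genes for turnover of the matrix, 6 were called higher, 6 lower and 3 were not called, with a median log2 change of 0.086. Of those lower, Timp3 and Adamts1 passed the filter only through their control level. Htra1, a secreted serine protease, rose from 16.0 and 16.0 RPKM to 36.4 and 39.4 RPKM (log2 change 1.22, limma adjusted p = 6.29e-07). Timp2, an inhibitor of matrix metalloproteinases, fell from 4.47 and 3.53 RPKM to 1.496 and 1.71 RPKM (log2 change -1.09, limma adjusted p = 2.50e-05). Mmp9, a collagen IV-cleaving gelatinase, rose from 1.22 and 1.20 RPKM to 2.46 and 2.71 RPKM (log2 change 0.85, limma adjusted p = 2.96e-05), and Mmp15, a membrane-bound metalloproteinase, fell from 7.59 and 6.37 RPKM to 3.65 and 3.50 RPKM (log2 change -0.87, limma adjusted p = 3.29e-05). Ctsl, cathepsin L, rose from 116 and 112 RPKM to 167 and 184 RPKM (log2 change 0.62, limma adjusted p = 4.19e-05).

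Since primitive and parietal endoderm are rich in these products, marker lists of the cell types that make basement membrane were read beside the members. Of 11 tested primitive endoderm markers, 8 were called higher, 0 lower and 3 not called by limma (0 lower at an unadjusted p under 0.05), with a median log2 change of 1.06, and their sum over all 15 was 148 and 159 RPKM under control siRNA and 203 and 199 RPKM under Hnrnpk siRNA, mostly from Sall4, which embryonic stem cells also express. Gata6, the factor that can turn embryonic stem cells into endoderm, had 0.721 and 0.565 RPKM and then 13.7 and 14.1 RPKM (log2 change 3.66, limma adjusted p = 2.04e-08). Gata4 had 1.21 and 0.938 RPKM and then 2.08 and 2.71 RPKM (log2 change 0.87, limma adjusted p = 0.000226), a call that was lost without the filter. Sox7 had 1.26 and 1.79 RPKM and then 6.29 and 6.01 RPKM (log2 change 1.73). Dab2, an endocytic adaptor of endoderm, had 1.66 and 1.59 RPKM and then 6.55 and 6.29 RPKM (log2 change 1.70), and the receptor Pdgfra had 0.191 and 0.148 RPKM and then 0.835 and 0.961 RPKM. Pdgfra and Foxq1 were among those of the 8 that passed the filter only through their level under Hnrnpk siRNA. Sox17 was below the filter, at 0.157 and 0.144 RPKM and then 0.821 and 0.805 RPKM.

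Parietal endoderm markers had 7 tested genes, with 4 called higher, 1 lower and 2 not called, a median log2 change of 0.47 and a sum over 9 genes of 93.3 and 108 RPKM and then 153 and 152 RPKM. Vim, vimentin, which many cell types express, gave most of that sum, and the other 8 genes summed to 13.1 and 13.0 RPKM and then 30.3 and 32.6 RPKM. Srgn, counted among those higher, passed the filter only through its level under Hnrnpk siRNA. Snai1, a transcription factor, rose from 2.18 and 2.13 RPKM to 17.8 and 18.2 RPKM (log2 change 2.80, limma adjusted p = 2.04e-08), and Fst, follistatin, from 0.483 and 0.595 RPKM to 1.84 and 1.83 RPKM (log2 change 1.17, limma adjusted p = 6.65e-06). Pth1r and Krt19 were not called. Stra6, below the filter, was at 0.166 and 0.166 RPKM and then at 0.0519 and 0.0602 RPKM. Thbd, thrombomodulin, also below the filter, was at 0.160 and 0.109 RPKM and then at 0.267 and 0.330 RPKM. Plat fell with a log2 change of -0.28 (limma adjusted p = 0.0324). The call of Plat was lost without the filter (limma adjusted p = 0.119) and with quantile normalization (limma adjusted p = 0.0629). Its log2 change was -0.23 without Hnrnpk siRNA replicate 1, -0.33 without Hnrnpk siRNA replicate 2 and -0.20 without control replicate 1. Visceral endoderm markers had 3 called higher and 2 lower of 7 tested, a median log2 change of -0.0099 and a sum over 16 genes of 26.6 and 27.8 RPKM and then 28.3 and 28.7 RPKM. Those lower were Trf (log2 change -0.91) and Rbp4 (-1.04), and those higher were Lrp2 (1.22), Spink1 (1.09) and Hhex (0.68). The call of Spink1, listed as Spink3, was lost without the filter (limma adjusted p = 0.0722). Lrp2, Amn and Cubn were in both this list and that of primitive endoderm, so the lists are not separate. Lrp2 was counted as higher in both, and Amn, not called, gave the visceral endoderm median. Apoa4 and Fgb were listed at 0 in every library, and Afp and Ttr at 0 to 0.0193 RPKM.

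Markers of other cells were read in the same way. Trophectoderm markers had 8 called higher and 1 lower of 9 tested, a median log2 change of 1.35 and a sum over 12 genes of 85.3 and 81.1 RPKM and then 124 and 128 RPKM. That median was above the 1.06 of the primitive endoderm markers, so a rise of markers was not particular to endoderm. Gata3 rose from 0.581 and 0.568 RPKM to 5.32 and 5.28 RPKM (log2 change 2.43) and Eomes had a log2 change of 1.65, while Tfap2c fell (-0.40). Fibroblast and feeder cell markers had 1 called higher and 2 lower of 4 tested. Their sum over 10 genes was 11.8 and 9.95 RPKM and then 7.12 and 7.17 RPKM. Thy1, at 6.90 and 5.20 RPKM and then 2.22 and 2.28 RPKM, and Col1a1 were lower (log2 change -1.24 and -0.42). Twist1 was higher (0.60, a call lost without the filter), and Pdgfrb was not called. Col1a2, Col3a1, Postn, Lum and Dcn were at or below 0.0923 RPKM in each library. Endothelial markers had 2 called higher and 1 lower of 3 tested, and their sum over 8 genes was 44.8 and 42.1 RPKM and then 55.6 and 57.0 RPKM, of which Pecam1, also made by embryonic stem cells, gave 38.2 and 36.6 RPKM and then 48.5 and 50.3 RPKM. Tek was also called higher (log2 change 0.50, a call lost without the filter), and Vwf was called lower (-1.05). Below the filter, Cdh5 had 0.0505 and 0.0370 RPKM and then 0.257 and 0.272 RPKM. Tie1 had 0.0604 and 0.0345 RPKM and then 0.283 and 0.283 RPKM. Kdr, Flt1 and Emcn, likewise not tested, stood at 0.000835 to 0.135 RPKM. Embryonic stem cell markers stayed abundant, with a sum over 10 genes of 4076 and 3915 RPKM and then 4760.4 and 5070.5 RPKM, and had 3 called higher, 3 lower and 4 not called. Dppa5a alone had 1320.3 and 1276 RPKM and then 2164 and 2451 RPKM, and the other 9 summed to 2756 and 2638 RPKM and then 2596 and 2619 RPKM. That sum of 9 hides opposite changes. Tfcp2l1 and Nanog were called higher (log2 change 1.44 and 0.82), and Sox2, Utf1 and Tdgf1 lower (-0.53, -0.29 and -0.24). With the GC trend removed, the log2 change of Utf1 was -0.0097 and was not called (limma adjusted p = 0.921). The part of any of these cells in the changes of the basement membrane genes was not tested.

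**Figure D4:**
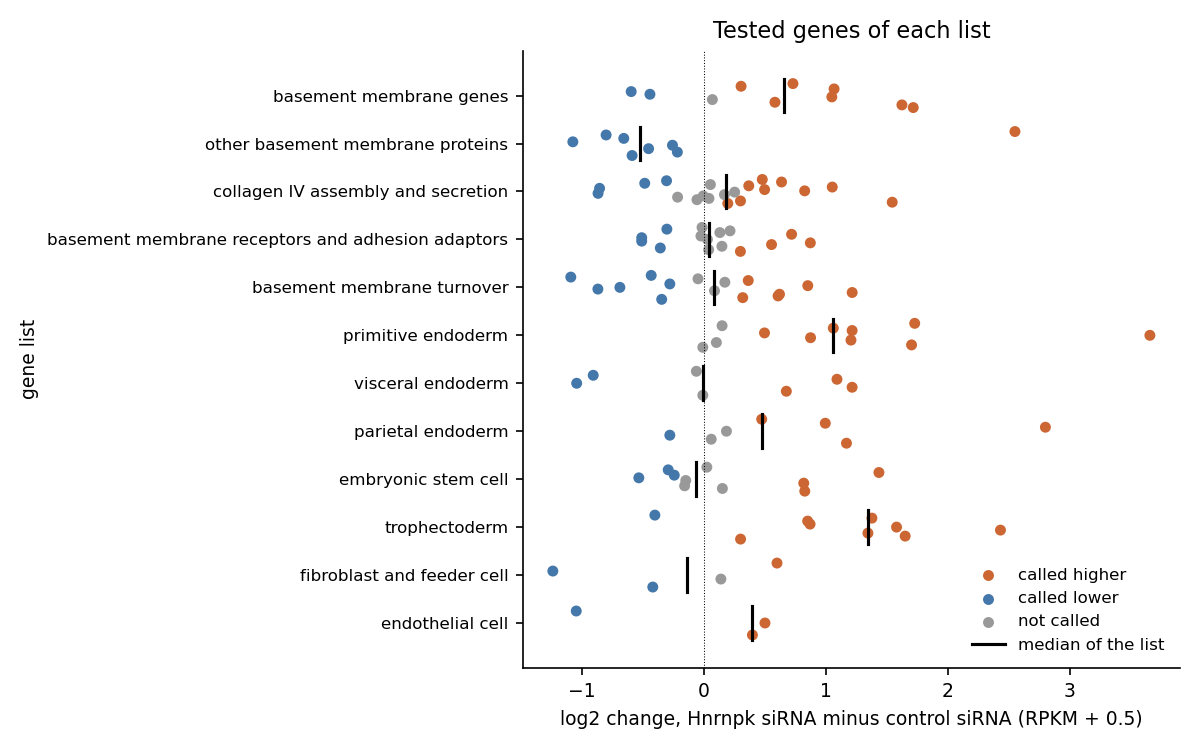
Log2 change of every tested gene in the basement membrane set and in the lists shown (points; orange called higher, blue called lower, grey not called; vertical bars are list medians; points are spread vertically only for visibility). The basement membrane genes span -0.60 to 1.72, the other basement membrane proteins lie mostly to the left of 0 with Tinagl1 at 2.55 as the exception, and Gata6 at 3.66 is the rightmost point among primitive endoderm markers.

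The genes next to the members on their chromosomes did not share 1 pattern. Rab20, which lies 4231 bases from Col4a2, rose from 1.87 and 1.51 RPKM to 3.06 and 3.62 RPKM (log2 change 0.81, limma adjusted p = 0.000146), and Irs2, on the far side of Col4a1, rose from 7.60 and 6.75 RPKM to 10.9 and 10.4 RPKM (log2 change 0.54, limma adjusted p = 0.000265). Adrm1, a proteasome gene that lies 87 bases from Lama5, had 24.6 and 24.6 RPKM and then 27.3 and 29.7 RPKM (log2 change 0.21, limma adjusted p = 0.0189), a call that was lost without Hnrnpk siRNA replicate 2 (adjusted p = 0.167) and without the filter (adjusted p = 0.0781). Gpr137b, beside Nid1, fell with a log2 change of -0.60, opposite in sign to Nid1, and Arhgap28, beside Lama1, fell with a log2 change of -0.38. Dld, beside Lamb1, had a log2 change of -0.099 (limma adjusted p = 0.170), but was called lower with quantile normalization (-0.16, adjusted p = 0.0410) and with the GC trend removed (-0.20, adjusted p = 0.0118). Atox1, beside Sparc, had a log2 change of -0.020 (limma adjusted p = 0.831), with a sign that changed between settings.

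By Euclidean distance between centred log2 values over the 4 libraries, the tested genes most like Col4a1 were Abcb1a (distance 0.0329), Krtdap (0.0352) and Nodal (0.0656). Nodal had 19.3 and 19.6 RPKM under control siRNA and 64.7 and 69.9 RPKM under Hnrnpk siRNA. The genes most like Sparc were Cdkn1c (distance 0.0182), 1810030N24Rik (0.0208) and Pigf (0.0245). Cdkn1c had 4.15 and 4.24 RPKM and then 7.001 and 7.39 RPKM. With 4 libraries in 2 groups, this likeness is mainly the size of the change.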

How the data were processed

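The authors deposited RNA-seq values as RPKM per gene, with 4 library columns in 1 table. BWA, SAMtools and the build mm9 are named in the submitters' processing notes, with no role given; no counting tool, annotation or strand setting was given in the sources used here. Positions, lengths and GC content were taken by Ensembl identifier from GENCODE M21 (GRCm38), and promoter windows from RefSeq (GRCm38.p6). The members, lists and rules were chosen with earlier results of these data known. List names were matched through GENCODE symbols and then the table's symbols; 1 name, Mia3, was not matched and not analysed here. Some results are not reported here.

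Values were analysed as log2(RPKM + 0.5), which understates the change of low genes, where the mean over all libraries reached 0.5 RPKM. The test was that of limma (3.58.1, under R 4.3.3) allowing a mean-variance trend, with two-sided moderated p-values and Benjamini-Hochberg adjustment over 12486 genes, and the fit was tested on simulated data. Ratios of chains were compared by exact permutation. Named genes are all members, Hnrnpk, 6 endoderm genes (Gata6, Gata4, Sox17, Sox7, Pdgfra, Dab2), up to 5 called genes of each list by lowest p (fewer are printed for some lists), neighbours and the 3 genes closest to Col4a1 and to Sparc; other single genes were named after their values were seen. Copies were searched with BLAST 2.17.0 at 95% identity over at least 100 bases. Relative depth came from the commonest ratio between low values of the same gene; read numbers are unknown, so no counting interval is given. The 14 alternatives were other added values, filters, scalings and variance models, GC or length trends removed, a replicate block and leaving out each library.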

Additional observations from a re-analysis of the deposited data

How the results depend on the processing

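Under the 14 alternatives, 9 of the 10 members kept their call and all 10 their direction; Nid2 lost its call without the filter on low values (log2 change 0.30, adjusted p = 0.0523). Members called higher numbered 7 (6 without the filter) and members called lower 2 under every alternative. The log2 change of Col4a1 ranged from 1.65 (1 RPKM added) to 1.86 (GC trend removed), of Col4a2 from 1.46 to 1.85, of Lama5 from 1.01 to 1.26, of Lama1 from 0.021 to 0.16 and of Lamc1 from -0.67 to -0.52. Replicate numbers did not pair the libraries (r = 0.027 over genes between deviations of same-numbered libraries), and with the replicate block 7 members were higher, 2 lower, and 4162 genes higher and 4460 lower in all, against 4025 and 4371 without it. The log2 difference in the ratio of Col4a1 to Col4a2 was -0.041; it became 0.093 with 0.5 RPKM added to each chain and 0.015 without control replicate 2, within a range of -0.097 to 0.015 over single libraries left out. The other 3 chain ratios kept their sign. Atox1 changed sign with the GC trend removed (0.17), without control replicate 2 (0.023) and without Hnrnpk siRNA replicate 1 (0.068), with -0.11 as the lowest value over single libraries left out. Counts in other lists that moved by over 1.5 times included primitive endoderm genes called higher (8, but 5 with a mean of at least 1 RPKM), receptors called higher (4, but 7 with the length trend removed), turnover genes called lower (6, but 3 with a mean of at least 1 RPKM), other basement membrane proteins called higher (1, but 3 without the filter) and embryonic stem cell markers called lower (3, but 0 without the filter). In the lists of parietal endoderm and fibroblast markers, counts of 1 or 2 became 0, 2 or 4 under some settings. Limits are the 2 libraries per group and the unknown read numbers.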
